A study of Mus musculus with 11 samples.

Results

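The phagocyte NADPH oxidase was followed through 6 of its genes in gonadal white adipose tissue, the visceral fat pad next to the gonads. The members were Cybb, Cyba, Ncf1, Ncf4 and Rac2, which serve the phagocyte enzyme, and Nox4, a related oxidase of other cells that served as the contrast. They were found by symbol in a table of 42815 loci. Of the 6, 5 were analysed, and Cyba was not analysed here. RNA was sequenced in 6 wild-type and 5 14-3-3ζKO libraries, from male C57Bl/6 mice of 50 weeks, all singly housed. The 14-3-3ζKO mice lack the scaffold protein 14-3-3ζ, encoded by Ywhaz, in the whole body, and wild-type littermates were the controls. Chow is the diet in the labels and a low-fat diet in the study, and which of them applies is not settled here. Nothing in the labels ties a replicate number to a named animal, so the p-values cover only the spread among samples, which may be technical.

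Expression was given as FPKM, a count of sequenced fragments per transcript length and per library size. A value for each group was given for every locus, and values for each library were given for 86 loci. Of the members, only Cybb was among these 86. The 86 loci are exactly those called in the authors' own comparison of these libraries. No test over libraries below, of Cybb or of another gene, is therefore independent of how the values came to be given. The deleted gene Ywhaz lay between 94.2 and 118.3 FPKM in wild-type and between 14.5 and 38.2 FPKM in 14-3-3ζKO libraries, without overlap. The fat markers Adipoq and Fabp4, an adipocyte hormone and a lipid carrier, stood at 1474 and 13823 FPKM in wild-type and at 1607 and 31136 FPKM in 14-3-3ζKO tissue, as the label of adipose tissue has it. No total of reads was given for any library, and depth is therefore unknown. Wild-type replicates 1, 3 and 4 stand apart from the rest: at 64 of the 86 loci each of them was above all other libraries.

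The phagocyte oxidase makes superoxide by passing electrons from NADPH across a membrane to oxygen. Its membrane part pairs a catalytic subunit (Cybb, also called NOX2) with a smaller partner (Cyba). On activation, the organiser Ncf1 and the regulatory subunit Ncf4 move with other cytosolic proteins from the cytosol to this pair together with the GTPase Rac2. In fat, most cells that carry the complex are macrophages and other leukocytes, whereas Nox4 shares the Cyba partner, makes hydrogen peroxide and needs none of the cytosolic subunits.

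All 4 phagocyte members with values were lower in 14-3-3ζKO than in wild-type fat by more than 2-fold. Group values were compared as the log2 difference of FPKM + 1, which understates changes of low genes, over the 15245 loci whose mean of both groups reached 1 FPKM. All 5 analysed members reached this floor. Of all these loci, 4.31% were lower by 2-fold or more and 9.67% were higher, and the median difference was 0.04 log2 units. A group value carries no spread and therefore no test. Because the samples are bulk tissue, fewer cells of a type and less RNA per cell cannot be told apart.

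Cybb, the catalytic subunit, showed the widest gap of the 5. Its group value was 36.8 FPKM in wild-type and 5.68 FPKM in 14-3-3ζKO tissue, a log2 difference of -2.50. In plain FPKM, 15.4% of the wild-type level remained. A difference at least as low was seen at 83 of the 15245 loci (0.544%). The gene lies on the minus strand of chromosome X (9012211 to 9064996, NCBIM37) and its longest annotated form has 13 exons.

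Ncf1, which organises the cytosolic complex, stood at 30.9 FPKM in wild-type and 8.21 FPKM in 14-3-3ζKO tissue. The log2 difference was -1.79, and 26.6% of the wild-type level remained. The locus (chromosome 5, 134659042 to 134705495, NCBIM37) overlaps Gtf2ird2 on the opposite strand, and 361 exonic bases of Ncf1 lie in exons of that gene. Gtf2ird2 stood at 2.84 and 2.75 FPKM in the 2 groups. Since the library kit does not mark strand, reads from the shared bases cannot be told apart. Of the 50-base stretches of Ncf1 transcripts, 6.37% were also in Gtf2ird2 transcripts.

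Ncf4, the regulatory subunit that binds a phagosomal lipid, showed the narrowest gap of the 4. It stood at 19.2 FPKM in wild-type and 8.68 FPKM in 14-3-3ζKO tissue (chromosome 15, 78075223 to 78093270, NCBIM37, plus strand). Its log2 difference of -1.06 was just past the 2-fold line and became -0.82 with a pseudocount of 5 FPKM.

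Rac2, the blood-cell GTPase that completes the active enzyme, stood at 17.1 FPKM in wild-type and 5.54 FPKM in 14-3-3ζKO tissue (chromosome 15, 78389599 to 78403213, NCBIM37, minus strand). The log2 difference was -1.47, and 32.4% of the wild-type level remained. Its broadly expressed relative Rac1 stood at 149.7 and 144.9 FPKM, a log2 difference of -0.05. No 50-base stretch of Rac2 transcripts was found in those of Rac1.

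Nox4 was low in both groups and could not have been called lower on this scale, since a fall to 0 FPKM would give a log2 difference of -0.99. It stood at 0.981 FPKM in wild-type and 1.14 FPKM in 14-3-3ζKO tissue (chromosome 7, 94394606 to 94547220, NCBIM37, plus strand), a log2 difference of 0.11, or 0.20 with a pseudocount of 0.1 FPKM. The former lay near the middle of all loci, 56.4% of which were as low or lower.

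**Figure D1:**
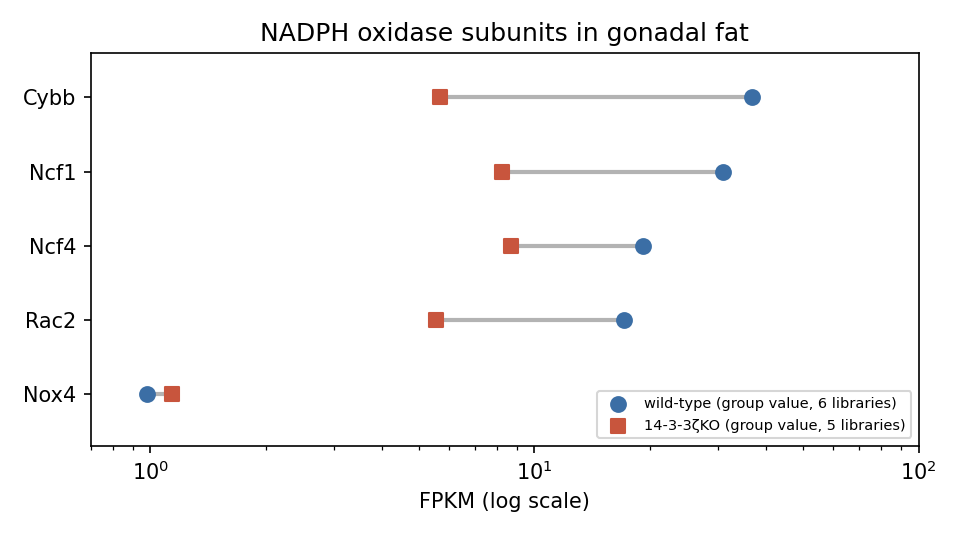
Group values of 5 oxidase members, in FPKM on a log axis, with a circle for wild-type and a square for 14-3-3ζKO tissue. The phagocyte subunits lie to the left in 14-3-3ζKO tissue, from 36.8 to 5.68 FPKM for Cybb, and the points of Nox4 lie close together at 0.981 and 1.14 FPKM.

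By group values, the subunits did not keep one proportion to each other. FPKM is scaled to transcript length, so levels can be set side by side. In wild-type tissue Cybb stood above Ncf1, Ncf4 and Rac2, whereas in 14-3-3ζKO tissue it stood below Ncf4 and Ncf1 and next to Rac2. The ratio of Cybb to Ncf1 went from 1.19 to 0.692, that of Cybb to Ncf4 from 1.92 to 0.654 and that of Cybb to Rac2 from 2.15 to 1.02. The ratio of Cybb to Nox4 went from 37.5 to 4.98. With no spread for the group values, which of these levels differ from their neighbours was not tested. Wild-type replicates 1, 3 and 4 held 85.3% of the summed wild-type Cybb, so its wild-type group value comes largely from them. Whether the order of subunits holds in each library was not tested.

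The start regions of Cybb and Ncf1, the members with the widest gaps, are printed beside that of Nox4 because the first pair was lower together and the group values of the last lay close together. Each runs from 250 bases before to 30 bases after the transcription start given by RefSeq on GRCm38.p6, 5′ to 3′ on the strand of the gene, at chrX:9469295-9469574 (minus) for Cybb, chr5:134229596-134229875 (minus) for Ncf1 and chr7:87246399-87246678 (plus) for Nox4. On NCBIM37 the Cybb window lies at 9046421 to 9046700, inside the locus given above. The annotated gene, with 5 transcripts on the minus strand, begins at 9064897, so this window is not at its outermost start. The Nox4 window, at 94394909 to 94395188, also lies inside its gene. The Ncf1 window, at 134705466 to 134705745, spans the outer end of its gene at 134705495. Capitals mark GAGGAA or its reverse complement TTCCTC, the core of the site bound by PU.1, a transcription factor of myeloid cells encoded by Sfpi1.
Cybb: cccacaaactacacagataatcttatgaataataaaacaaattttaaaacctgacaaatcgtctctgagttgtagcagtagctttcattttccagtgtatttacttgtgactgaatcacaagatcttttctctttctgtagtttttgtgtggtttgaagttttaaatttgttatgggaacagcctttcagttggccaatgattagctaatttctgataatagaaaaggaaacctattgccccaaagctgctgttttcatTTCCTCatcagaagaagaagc
Ncf1: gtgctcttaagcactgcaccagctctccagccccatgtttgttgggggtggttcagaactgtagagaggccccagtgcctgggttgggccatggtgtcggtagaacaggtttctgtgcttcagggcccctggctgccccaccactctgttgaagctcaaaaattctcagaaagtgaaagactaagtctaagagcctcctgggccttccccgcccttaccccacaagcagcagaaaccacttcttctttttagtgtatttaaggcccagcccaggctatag
Nox4: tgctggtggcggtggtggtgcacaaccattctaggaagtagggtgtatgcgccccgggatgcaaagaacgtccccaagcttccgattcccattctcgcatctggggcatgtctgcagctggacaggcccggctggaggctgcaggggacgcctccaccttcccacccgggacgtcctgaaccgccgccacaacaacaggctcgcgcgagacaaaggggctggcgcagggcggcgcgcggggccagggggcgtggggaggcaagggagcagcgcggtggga
The motif was present 1 time in the Cybb window, as the reverse complement and 9 bases after the start, and in neither of the other windows. Of 32851 RefSeq start windows of this length, 26% hold it on either strand. A match is a description of letters only. Ncf4 and Rac2 are named without a sequence. Sfpi1 itself stood at 60.6 FPKM in wild-type and 9.92 FPKM in 14-3-3ζKO tissue, a log2 difference of -2.50.

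Cybb varied widely among wild-type libraries. Its values were 60.3, 14.8, 67.3, 60.5, 10.7 and 7.06 FPKM in wild-type replicates 1 to 6, and 4.71, 10.1, 2.58, 7.40 and 3.58 FPKM in 14-3-3ζKO replicates 1 to 5. Wild-type replicates 1, 3 and 4 stood far above the others, and 14-3-3ζKO replicates 2 and 4 were above the lowest wild-type library, so the groups overlapped. The means were 36.8 ± 28.6 FPKM (SD, n = 6) and 5.68 ± 3.07 FPKM (SD, n = 5). Over libraries, the mean of log2(FPKM + 1) differed by -2.13 ± 0.64 (SE), 14-3-3ζKO minus wild-type. This mean of logs is smaller in size than the -2.50 of the group values, which are logs of means. An exact two-sided permutation test gave p = 0.0173, or 0.0425 after Benjamini-Hochberg adjustment over the 86 loci, of which 47.7% were called lower in the same way. With a pseudocount of 5 FPKM the difference was -1.65 and the adjusted p was 0.0508 by the same exact test. After recentring on each library's median over the 86 loci it was -0.61 (adjusted p = 0.0169), but 66 of these loci had a difference below 0 themselves, so their median carries a group difference of its own.

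Wild-type replicates 1, 3 and 4 held 85.3% of the summed wild-type FPKM of Cybb, and the call was not kept without them. In the remaining 3 wild-type libraries Cybb averaged 10.8 ± 3.86 FPKM (SD, n = 3). Against these the difference was -0.89, with an exact permutation p of 0.107 (adjusted p = 0.225). The libraries left out were those with the highest Cybb, so a smaller difference was set in advance. With 56 splits the smallest p this permutation test could give was 0.0179, so the lost call does not show what it rested on. Leaving out any one of the 14-3-3ζKO libraries, or wild-type replicate 1 or 4, also took the adjusted permutation p past 0.05, with a highest value of 0.0788, whereas the difference stayed between -2.48 and -1.86. With limma, the adjusted p lay between 0.00338 and 0.0420 without each library in turn. Whether Ncf1, Ncf4, Rac2 and Nox4 share the spread of Cybb was not tested, since values for each library were not used for them here.

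**Figure D2:**
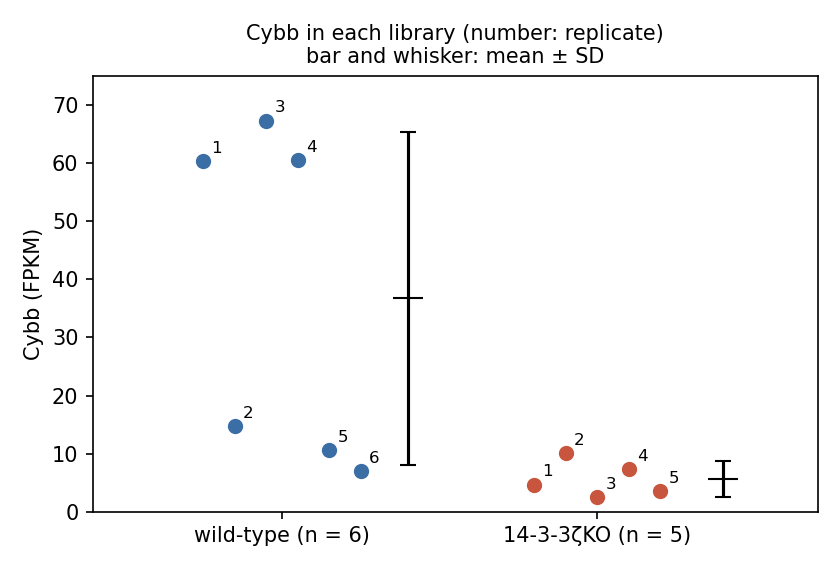
Cybb in FPKM in each of the 11 libraries, numbered by replicate, with the mean and SD of each group at the right of its points. Wild-type replicates 1, 3 and 4 sit between 60.3 and 67.3 FPKM, and the other wild-type libraries, between 7.06 and 14.8 FPKM, overlap the 14-3-3ζKO range of 2.58 to 10.1 FPKM.

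The 5 loci whose pattern was most like that of Cybb over the 11 libraries were genes of macrophages and related myeloid cells. By Pearson correlation of log2(FPKM + 1) these were Ctss (0.999), Mpeg1 (0.993), Cd84 (0.991), Trem2 (0.990) and Anpep (0.989), of the other 85 loci. All points share the 2 groups and the 3 high wild-type libraries, and the 86 loci were selected, so these are descriptions. High values were not limited to myeloid genes. The stromal marker Lum had 0.957 (rank 33), above the macrophage marker C1qb with 0.951 (rank 36). The stromal marker Col1a1 had 0.804 (rank 63). Ctss, a lysosomal protease of antigen-presenting cells, stood at 917, 207, 1119, 924, 167 and 99.9 FPKM in wild-type replicates 1 to 6. In 14-3-3ζKO replicates 1 to 5 it stood at 76.7, 138, 47.9, 109 and 60.1 FPKM. Mpeg1, a pore-forming protein of macrophages, ranged from 25.9 to 274 FPKM in wild-type and from 10.1 to 30.02 FPKM in 14-3-3ζKO libraries. The receptor Trem2 ranged from 20.2 to 392 and from 9.92 to 26.0 FPKM, and Cd84, a leukocyte adhesion receptor, from 10.9 to 155 and from 3.10 to 21.1 FPKM. Anpep, an aminopeptidase of the cell surface, ranged from 6.41 to 109 and from 4.20 to 13.6 FPKM. Cybb and Ctss ranked the 11 libraries in the same order. Cybb was between 6.01% and 7.13% of the Ctss level in wild-type and between 5.37% and 7.34% in 14-3-3ζKO libraries.

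Cybb was also set against macrophage markers within each library. Of 15 markers, 7 had values for each library (Cd68, Trem2, Emr1, Mpeg1, C1qb, Tyrobp and Itgax), and this comparison was chosen after the values were seen. Cybb and these 7 had such values because the authors' own comparison called them, so a small difference in their ratio was partly set by selection. By group values the 7 had log2 differences from -3.49 (Trem2) to -1.95 (C1qb). The markers left out ran from -2.78 (Lyz2) to 0.29 (Cd14). The log2 ratio of Cybb to their geometric mean was -2.19 ± 0.21 (SD, n = 6) in wild-type and -2.07 ± 0.29 (SD, n = 5) in 14-3-3ζKO libraries. The difference of 0.12 ± 0.16 (SE) did not pass an exact two-sided permutation test (p = 0.422). It was -0.03 (p = 0.929) without wild-type replicates 1, 3 and 4, by the same exact test. Against single markers, the mean log2 ratio differed between groups by -0.45 for C1qb at one end and by 0.69 for Emr1, the F4/80 antigen, at the other. None of the 7 passed, with a lowest exact permutation p of 0.0563 (adjusted p = 0.197). A p that misses the threshold does not show that Cybb and the markers moved alike.

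**Figure D3:**
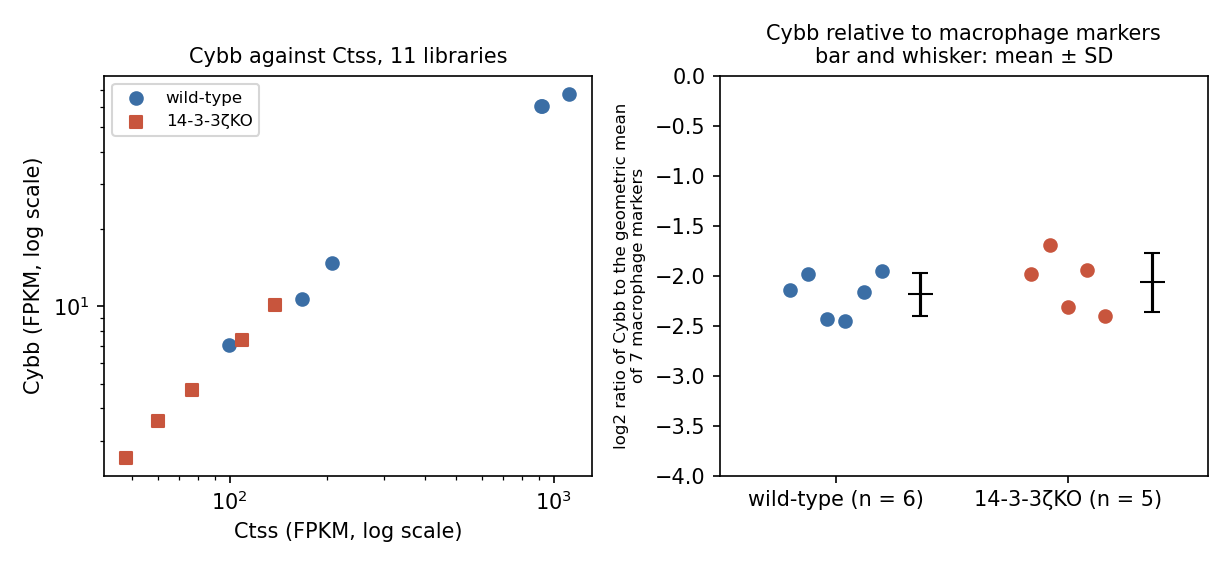
Left, Cybb against Ctss in FPKM on log axes for the 11 libraries. Right, the log2 ratio of Cybb to the geometric mean of 7 macrophage markers in each library, with the mean and SD of each group, -2.19 ± 0.21 in wild-type and -2.07 ± 0.29 in 14-3-3ζKO tissue.

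Markers of macrophages, which carry the complex, were lower as well. Of 15 macrophage markers, 14 were lower by 2-fold or more, with a median log2 difference of -2.27, and their summed level was 5055 FPKM in wild-type and 919 FPKM in 14-3-3ζKO tissue. Lyz2, lysozyme, stood at 2311 and 334 FPKM, Tyrobp, a myeloid signalling adaptor, at 470 and 71.9 FPKM, Trem2, a lipid-sensing receptor, at 182 and 15.3 FPKM, and Emr1 at 95.5 and 7.79 FPKM. The exception was Cd14, an endotoxin co-receptor, at 26.9 and 33.1 FPKM. Of the 4 lower phagocyte members, each had a log2 difference smaller in size than the macrophage median except Cybb. The part of macrophage content in the members' differences was not tested.

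Neutrophils carry the same oxidase, and their 12 markers did not share a direction. Of these, 6 did not reach the floor. Among them Ly6g stood at 0.0756 and 0 FPKM, Mpo at 0.107 and 0.220 FPKM, Elane at 0.285 and 0.408 FPKM, and Cxcr2 at 0.129 and 0.145 FPKM in wild-type and 14-3-3ζKO tissue. The summed level of the 12 was 46.6 FPKM in wild-type and 77.0 FPKM in 14-3-3ζKO tissue, of which the calcium-binding S100a8 made up 28.3 and 37.3 FPKM. S100a9 stood at 4.62 and 23.1 FPKM and Retnlg at 0.350 and 8.75 FPKM, whereas Ltf stood at 4.92 and 0.594 FPKM, Csf3r at 3.25 and 1.65 FPKM and Mmp9 at 4.43 and 4.05 FPKM. Of the 6 past the floor, 2 were higher (S100a9 and Retnlg) and 1 was lower (Ltf) by 2-fold, and the part of neutrophil content in the members' differences was not tested. For 12 lymphocyte markers the sums were 88.0 and 77.5 FPKM. Of the 11 past the floor, 1 was lower (Klrb1c, a natural killer cell receptor, at 55.3 and 25.4 FPKM) and Cd79b, of the B cell receptor, was among those higher, at 5.96 and 13.5 FPKM. Among cells that make up the pad itself, 1 of 10 adipocyte markers was lower and 3 were higher (median 0.53). Of 8 endothelial and 8 smooth muscle markers, 1 each was higher (medians 0.19 and 0.28). Of 9 stromal markers 3 were lower (median -0.29), and their differences were in the range of the macrophage markers. These were the collagens Col1a1, at 60.0 and 10.3 FPKM (log2 difference -2.44), and Col3a1, at 174 and 40.2 FPKM (-2.09), and the matrix proteoglycan Lum, at 63.8 and 17.0 FPKM (-1.85). Over libraries, Col1a1 differed by -2.32 ± 0.68 (SE; exact permutation, adjusted p = 0.0407) and Lum by -1.46 ± 0.64 (SE; adjusted p = 0.0991). Both are among the loci that the authors had called, so these p-values are not independent of that choice. The part of stromal content was not tested either. Of 8 mesothelial markers 2 were higher (median 0.92).

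Of 64 further genes around the oxidase, in 7 lists, 57 passed the floor, and 12 of these were lower and 2 higher by 2-fold or more. Over all loci past the floor 4.31% were lower and 9.67% higher, the background for all counts of lists and markers here. Among other catalytic subunits, Nox1 alone passed it, at 1.03 and 1.38 FPKM in wild-type and 14-3-3ζKO tissue. Nox3, Duox1 and Duox2 were below 1 FPKM. The 6 partner subunits past the floor had a median of 0.00. Duoxa1, which matures the dual oxidases, stood at 3.96 and 1.84 FPKM, and Poldip2, a partner of Nox4, at 38.4 and 43.2 FPKM.

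The switch proteins of Rac and Rap load the small GTPases or hold them inactive. All 11 were below 0, beside 7134 of the 15245 loci past the floor. Of the 11, 4 were lower by 2-fold, and the median was -0.87. Arhgap25, which turns Rac off, stood at 35.7 and 6.06 FPKM (log2 difference -2.38). Dock2, which turns Rac on in leukocytes, stood at 21.2 and 4.86 FPKM (log2 difference -1.92). Prex1 and Vav3, which load Rac as well, differed by -1.52 and -1.38. The broadly expressed Arhgdia, which holds Rac in the cytosol, stood at 229 and 145.7 FPKM, and Rap1b at 116 and 88.7 FPKM. Arhgap25 also had a value for each library, as one of the loci called in the authors' own comparison. It stood at 43.2, 9.12, 76.5, 67.8, 13.4 and 4.37 FPKM in wild-type replicates 1 to 6 and at 4.33, 13.2, 1.59, 7.93 and 3.27 FPKM in 14-3-3ζKO replicates 1 to 5. The same 3 wild-type libraries were high, the groups overlapped, and the difference of -2.003 ± 0.78 (SE) had an adjusted p of 0.0515 by exact permutation and of 0.0224 in limma.

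Among 13 kinases and lipid enzymes that act on the oxidase, 4 were lower by 2-fold, none was higher, and the median was -0.92. Prkcb, a protein kinase C that phosphorylates Ncf1, stood at 10.1 and 2.57 FPKM at the more abundant of its 2 loci. Pik3r5, a regulatory subunit of the lipid kinase of chemoattractant receptors, stood at 13.7 and 3.87 FPKM, and its catalytic partner Pik3cg differed by -1.16. The fourth was Btk, at -1.14. Prkcd, another kinase of Ncf1, and Mapk14, the p38α kinase, were the most abundant and stayed inside 2-fold, at 61.7 and 31.4 FPKM and at 29.7 and 17.6 FPKM. Among 3 genes that balance the charge of the electron flow, none was past 2-fold. The proton channel Hvcn1 stood at 23.8 and 14.3 FPKM, and the chloride transporter Clcn3 differed by 0.02.

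The genes that dispose of superoxide and peroxide lay on both sides of 0. Of 16, 1 was lower and 1 was higher, beside 4.31% and 9.67% of all loci, and the median was 0.18. Hmox1, heme oxygenase, stood at 115 and 53.8 FPKM (log2 difference -1.09), and Gpx4, which reduces lipid peroxides, at 713 and 1865 FPKM (log2 difference 1.39). Gpx1 stood at 933 and 1136 FPKM. Among 7 myeloid transcription factors past the floor, Sfpi1 was among those lower by 2-fold. Cebpb was higher, at 32.8 and 94.9 FPKM, at a locus that runs beyond the gene. Cebpa, a factor of adipocytes as well, stood at 121 and 102.7 FPKM. Irf8 was not analysed here.

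**Figure D4:**
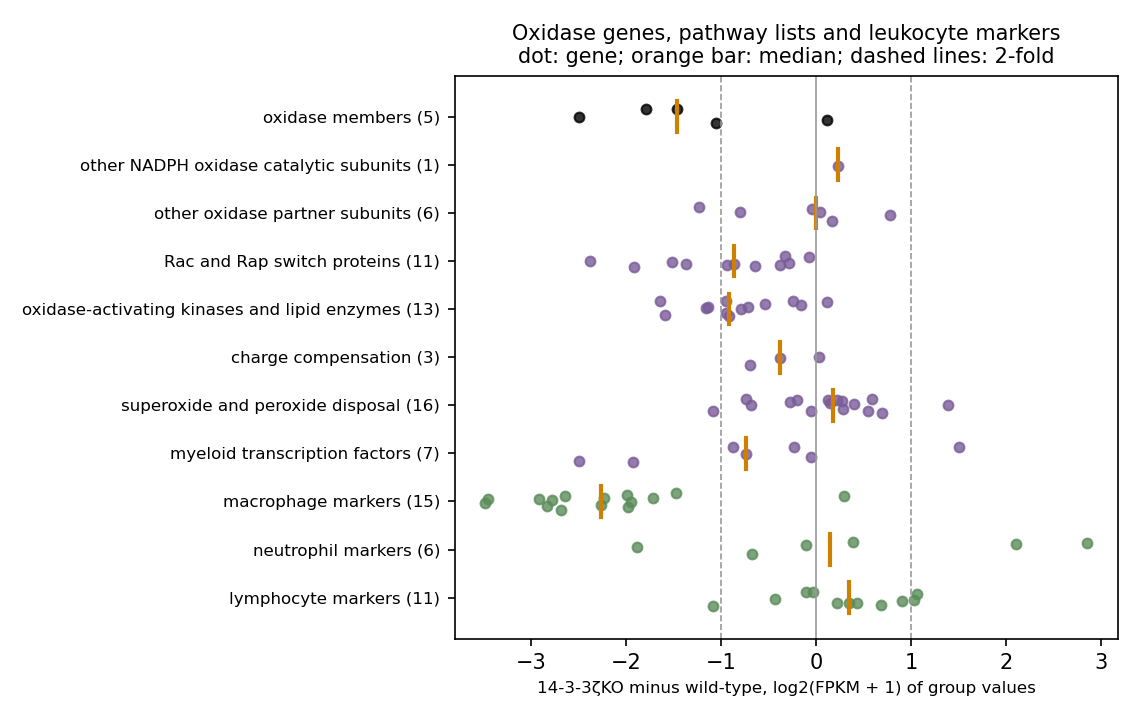
The log2 difference of group values, 14-3-3ζKO minus wild-type on log2(FPKM + 1), for 5 oxidase members, 7 pathway lists and 3 leukocyte marker lists, with a dot for each gene past the floor and a bar at each median. Macrophage markers are centred on -2.27, switch proteins on -0.87, kinases and lipid enzymes on -0.92, and disposal enzymes on 0.18.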

How the data were processed

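The libraries were made with a kit that does not mark strand. By the submitters' processing notes and the methods, the authors aligned reads with TopHat2 2.0.11 to NCBIM37 and obtained FPKM with Cufflinks 2.2.0 and Cuffdiff. How libraries were scaled was not stated in the sources used here. The authors deposited FPKM as 1 value for each group at 42815 loci and for each library at 86 loci. Columns of the authors' own comparison (fold change, test statistic, p, q and call) were not used, other than to check that the 86 loci are those called there.

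Group values were compared on log2(FPKM + 1) at loci with a mean of at least 1 FPKM, with 2-fold as the line. Of several loci of a symbol, the one with the highest mean was taken. Values for each library were compared by exact permutation (462 splits, smallest p 0.00216) with Benjamini-Hochberg adjustment, and by limma 3.58.1 in R 4.3.3. Both were tested on simulated data with the same spread in every library. Those data do not cover wild-type libraries that stand as far apart as here. The mean of libraries differed from the group value by over 1% at 1 locus, C1qb (464 against 359 FPKM in wild-type). Genome coordinates are 1-based. Start windows came from RefSeq (used for 3 of 6 members), and no protein sequence was used here.

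Members and lists were chosen with earlier results of these data known. All members were named, and in each list the 2 genes of highest mean and the 2 of largest difference past the floor. Others named in the text (such as Cd14, Prex1, Vav3, Pik3cg, Btk, Ltf, Csf3r, Mmp9, Lum and neutrophil markers near 0) were chosen after their values were seen. Some genes that the rule names are not reported here. Markers of adipocytes, endothelium, smooth muscle, stroma and mesothelium were measured too. Alternatives were other pseudocounts, floors and folds, recentring, limma, the replicate number as a block, and leaving out libraries.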

Additional observations from a re-analysis of the deposited data

How the results depend on the processing

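The count of 4 members lower by 2-fold or more was also 4 with a pseudocount of 0.1 FPKM, with no floor or one of 5 FPKM, at 1.5-fold and after recentring on all loci, 3 with a pseudocount of 5 FPKM (without Ncf4) and 1 at 4-fold (Cybb). No member's difference changed sign. Of the pathway genes, 12 were lower, against 26 at 1.5-fold and 2 at 4-fold. Over all 15245 loci past the floor, 657 were lower and 1474 higher, against 353 and 543 with a pseudocount of 5 FPKM. The counts were 1607 and 2671 at 1.5-fold and 148 and 421 at 4-fold. With a floor of 5 FPKM only 9976 loci remained, of which 470 (4.71%) were lower and 596 (5.97%) higher.

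Over libraries, Cybb differed by -1.65 with a pseudocount of 5 FPKM (adjusted p = 0.0508 by exact permutation) and by -0.61 after recentring on each library's median over the 86 loci (adjusted p = 0.0169), of which limma called 59 lower with all libraries. Without wild-type replicates 1, 3 and 4 it differed by -0.89, with an adjusted p of 0.225 by exact permutation and of 0.175 in limma. This alternative was chosen after seeing the data for the permutation test. Leaving out 1 library at a time gave -2.48 to -1.86, and the exact permutation call was kept in 4 of 11 cases and lost in 7, whereas limma kept it in 11. The smaller number of splits raises the smallest p that permutation can give. The 41 loci called lower by permutation became 11 without wild-type replicate 1, 11 without replicate 4 and 62 without replicate 6. They became 0 without 14-3-3ζKO replicate 1, 2, 4 or 5 and 1 without replicate 3.

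Over the 86 loci, the deviations of libraries of one replicate number correlated at between -0.49 and 0.57. These loci were selected and most share the high wild-type libraries, so the correlations cannot decide whether replicate numbers pair the samples. With the replicate block, limma gave Cybb -2.48 (adjusted p = 0.00522), against an adjusted p of 0.00338 without the block in the same libraries, and 64 against 65 loci were called lower. The log2 ratio of Cybb to the macrophage markers differed between groups by 0.02 to 0.20 without each library in turn and by 0.22 without C1qb. Depth was not known, and the group values carry no spread, so no limit is given for Nox4 or other low genes.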
